A study of Mus musculus with 2 samples.

Results

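Liver and kidney marker microRNAs were measured in the adrenal gland as 6 annotated miRNA genes, namely Mir122, Mir192, Mir194-1, Mir194-2, Mir204 and Mir215, of 2202 miRNA genes in all. They were taken by name, Mir122 for liver and the other 5 for kidney, because these organs adjoin the adrenal gland and carried-over tissue could bring in their RNA. The libraries came from microRNA sequencing of total RNA below 30 nucleotides from the adrenal glands of adult male mice aged 8 to 10 months. The strain was labelled 5xFAD/CAST, where 5xFAD names a transgenic model of Alzheimer's disease and CAST a wild-derived inbred strain. Whether these animals carried the transgenes is not stated in the labels. There was 1 group of 2 libraries, labelled biological replicates 1 and 2, with separate sample records and the same donor record, so the spread between them may be partly technical. No liver or kidney library was analysed here, and the design has no second group.

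MicroRNAs are short RNAs cut from hairpin transcripts that lower the output of messenger RNAs matching their seed, the bases near the 5′ end that lead target recognition. Mir122 is the dominant miRNA of hepatocytes, where it is known for its part in lipid and cholesterol metabolism. Mir192, Mir194 and Mir215 are made from paired hairpins at separate loci and are abundant in kidney, liver and gut epithelium. Mir204 is known from kidney and from the retinal pigment epithelium.

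The mature sequences explain which of these genes can be counted apart. They are given 5′ to 3′ from RefSeq (build GRCm38.p6), where 5 of the 6 genes were matched for printing, and capitals mark the seed, bases 2 to 8. The sequence of Mir122 is not shown.
miR-192-5p: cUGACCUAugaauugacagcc
miR-215-5p: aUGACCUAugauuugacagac
miR-194-5p, from both Mir194-1 and Mir194-2: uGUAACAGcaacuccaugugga
miR-194-1-3p: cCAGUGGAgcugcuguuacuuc
miR-194-2-3p: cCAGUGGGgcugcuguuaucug
miR-204-5p: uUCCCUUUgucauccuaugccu
miR-211-5p: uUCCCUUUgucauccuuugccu

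The 5′ arms of Mir192 and Mir215 had the same seed and matched at 18 of 21 bases. Counted from the 5′ end, with the base of miR-192-5p first, they differed at C1A, A12U and C20A. The 5′ arm of Mir194-1 and Mir194-2 was identical over its 22 bases, and this was also the longest run that their hairpins shared. A read of that arm with no further base from its hairpin therefore matches both loci, and such multimapping reads were assigned to no gene. The 3′ arms of the Mir194 genes matched at 18 of 22 bases and differed at A8G, C19U, U20C and C22G, with the base of miR-194-1-3p first. Mir211, the paralog of Mir204, matched it at 21 of 22 bases in the 5′ arm, with the difference A17U. The longest run shared by the hairpins of Mir204 and Mir211 was 17 bases, and that of Mir192 and Mir215 was 10 bases.

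On GRCm38 (mm10), in the GENCODE M21 annotation, all 6 genes lay on the plus strand. Mir122 (ENSMUSG00000065402.1) lies on chromosome 18 at 65248861 to 65248926 and overlaps an exon of the long noncoding gene AC157910.3. Mir194-2 (ENSMUSG00000065582.1) lies on chromosome 19 at 6264643 to 6264728, and Mir192 (ENSMUSG00000065523.1) follows at 6264844 to 6264932 after a gap of 115 bases. Neither overlaps another annotated gene. Mir194-1 (ENSMUSG00000065581.1) lies on chromosome 1 at 185313319 to 185313385, in an intron of the noncoding gene 2010103J01Rik. Mir215 (ENSMUSG00000065562.1) follows at 185313581 to 185313692 after a gap of 195 bases and overlaps an exon of 2010103J01Rik, and the protein-coding gene Iars2 runs across both on the opposite strand. Mir204 (ENSMUSG00000065507.3) lies on chromosome 19 at 22750605 to 22750672 in an intron of Trpm3. No other miRNA gene was annotated within 10 kb of any of the 6.

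The libraries held 6783227 and 3084602 sense reads of miRNA genes in replicates 1 and 2. Levels are given in CPM, sense reads per 1000000 sense reads of all miRNA genes, with Wilson 95% intervals that cover counting error only. At these depths 3 reads, the limit that a count of 0 allows, equal 0.442 and 0.973 CPM. Multimapping reads made up 30.3% and 32.1% of all reads in the tables. Mir375, known from neuroendocrine cells, stood at 58717 and 82443 CPM, Mir7b of the same list at 4535 and 4423 CPM, and Mir202, known from steroid-producing gonads, at 19.0 and 22.7 CPM.

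All 6 genes together took a small part of the miRNA reads, 0.0368% (0.0354 to 0.0383) in replicate 1 and 0.0158% (0.0144 to 0.0172) in replicate 2. Over the libraries this averaged 0.0263% ± 0.0149 (SD, n = 2). The 5 kidney genes held nearly the same share in both libraries, 0.0111% (0.0103 to 0.0119) and 0.00999% (0.00893 to 0.0112). Mir122 alone held 0.0257% (0.0245 to 0.0270) and 0.00577% (0.00498 to 0.00668), so the fall of the sum followed Mir122. Of the 6 genes, 4 were above 2 CPM in both libraries, as were 334 of the 2202 annotated genes. A lower level in bulk tissue can come from fewer cells of a type or from less RNA per cell, and these cannot be told apart here.

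Mir122 was the highest of the 6 genes in both libraries and the most uneven between them, though in replicate 2 its interval overlapped that of Mir204. Mir122 had 1745 reads in replicate 1, or 257 CPM (245 to 270), and 178 reads in replicate 2, or 57.7 CPM (49.8 to 66.8). Its mean was 157 ± 141 CPM (SD, n = 2). Replicate 1 was 4.46-fold above replicate 2, and the intervals lay far apart. Mir122 ranked 119th among the miRNA genes in replicate 1 and 201st in replicate 2.

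Mir204 was the highest of the 5 kidney genes. It had 434 and 173 reads, which gave 64.0 CPM (58.2 to 70.3) in replicate 1 and 56.1 CPM (48.3 to 65.1) in replicate 2. Its level averaged 60.0 ± 5.58 CPM (SD, n = 2), and the intervals of the libraries overlapped. Mir204 took 57.7% (54.2 to 61.2) of the reads of the 5 kidney genes in replicate 1 and 56.2% (50.6 to 61.6) in replicate 2. Its paralog Mir211, which lies in an intron of Trpm1 and is known from pigment cells, had 2 reads in replicate 1 and 0 in replicate 2. Among the mature miRNAs of the RefSeq table outside chromosome 18, which was not searched, the seed of miR-204-5p was otherwise found in miR-7670-3p, whose gene Mir7670 had 1 read and 0 reads. Nearly all reads counted for these 3 genes therefore came from the Trpm3 locus.

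Mir192 gave the closest match between the libraries. Its 198 reads in replicate 1 gave 29.2 CPM (25.4 to 33.5) and its 88 reads in replicate 2 gave 28.5 CPM (23.2 to 35.1). Its level averaged 28.9 ± 0.467 CPM (SD, n = 2). Mir215, which shares its seed, had 11 reads in replicate 1 and 13 in replicate 2, or 1.62 CPM (0.906 to 2.90) and 4.21 CPM (2.46 to 7.21). Both counts of Mir215 were above the limit of 3 reads, but its level in replicate 1 was under 2 CPM. Of the reads of Mir192 and Mir215 together, Mir215 held 5.26% (2.96 to 9.18) in replicate 1 and 12.9% (7.68 to 20.8) in replicate 2. Between these 2 genes, the chromosome 19 locus gave most of the reads in both libraries, with 18.0 (9.84 to 36.6) and 6.77 (3.76 to 13.2) Mir192 reads for each Mir215 read.

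The Mir194 genes were counted unequally. Mir194-2, the neighbour of Mir192, had 109 and 34 reads, or 16.1 CPM (13.3 to 19.4) in replicate 1 and 11.0 CPM (7.89 to 15.4) in replicate 2. The counted level averaged 13.5 ± 3.57 CPM (SD, n = 2). Mir194-1, the neighbour of Mir215, had 0 reads in both libraries. Since the identical 5′ arm goes uncounted where reads match both loci, the counts of both genes are lower limits, and the 0 of Mir194-1 sets no upper limit. Mir192 had 1.82 (1.43 to 2.32) reads for each counted Mir194-2 read in replicate 1 and 2.59 (1.72 to 3.97) in replicate 2, with overlapping intervals. In both loci the mir-192 or mir-215 hairpin was counted above its mir-194 neighbour, an order that the uncounted reads could change.

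**Figure D1:**
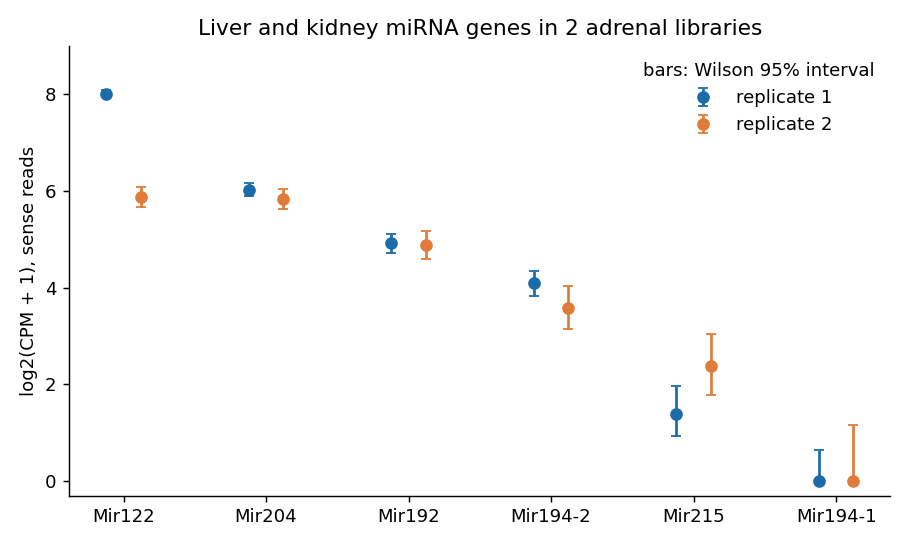
Level of each of the 6 genes in replicates 1 and 2, as log2(CPM + 1) of sense reads, with Wilson 95% intervals as bars. Mir122 differs between the libraries (257 and 57.7 CPM), while the points of Mir204, Mir192 and Mir194-2 lie within overlapping intervals and Mir194-1 is at 0.

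By mean CPM the order was Mir122, Mir204, Mir192, Mir194-2, Mir215 and Mir194-1. A pair was taken as ordered when both libraries agreed on its direction and both gaps exceeded the larger replicate difference of its genes, on the log2(CPM + 1) scale. By this rule 13 of the 15 pairs were ordered, and the exceptions were Mir122 with Mir204 and Mir122 with Mir192. Of the 6 pairs without a Mir194 gene, 4 were ordered, and the order of the other 9 is uncertain because of the uncounted reads. The gap between Mir122 and Mir204 in replicate 2 was only 0.04 in log2. Mir192 minus Mir204 was −1.11 in replicate 1 and −0.95 in replicate 2, against a largest replicate difference of 0.19. CPM values of different hairpins also carry any difference in capture, so the order is one of reads.

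**Figure D2:**
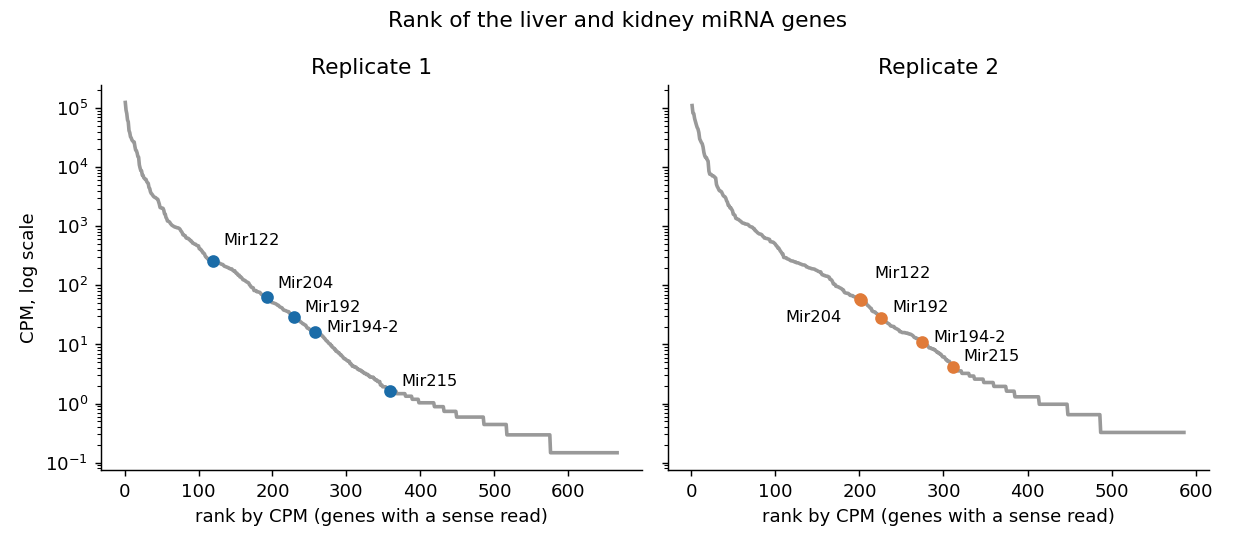
Genes with at least 1 sense read in each library, ordered by CPM (log axis), with the liver and kidney genes marked. Mir122 stands at rank 119 in replicate 1 and beside Mir204 at ranks 201 and 202 in replicate 2, and Mir194-1 has no read.

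Mir122 was lower in replicate 2, and none of the 3 kidney genes that reached a mean of 10 CPM passed the same limits. The log2 difference, replicate 2 minus replicate 1 of log2(CPM + 1), was −2.14 for Mir122. The exact 95% interval of its log2 read ratio was −2.39 to −1.93, with an adjusted p of 1.9e-117 in Fisher's exact test. The test sets the reads of 2 libraries against each other and says nothing of animals or conditions. A call needed an adjusted p under 0.05 together with a log2 difference of 1 or more in size. Of the 280 genes that reached a mean of 10 CPM, 30 were called, or 10.7%, and 13 of them were lower in replicate 2, or 4.64%. Of the 6 genes, 4 reached that mean and 1 of these was called. By the adjusted p alone, 194 of the 280 genes differed, or 69.3%, and again 1 of the 4. Under TMM or DESeq2 scaling this last count was 3 of the 4, Mir122, Mir204 and Mir194-2, while only Mir122 was also 2-fold different. The share of the 280 genes by adjusted p alone was not counted under these scalings. The 3 of 4 is therefore not read as a result about these genes.

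The kidney genes differed less between the libraries. Mir192 had a log2 difference of −0.03 (interval −0.41 to 0.34, Fisher's exact test adjusted p = 0.918) and Mir204 one of −0.19 (−0.45 to 0.07, Fisher's exact test adjusted p = 0.189). Mir194-2 was at −0.51 (−1.14 to 0.02, Fisher's exact test adjusted p = 0.0799). The median over the 280 genes was 0.01, and the median absolute difference was 0.28. Mir215 was under the mean of 10 CPM, so its p was left unadjusted (Fisher's exact test, p = 0.0251) and no call was made. Its log2 difference was 0.99, or 1.38 as a read ratio without a pseudocount. The interval of that ratio, 0.10 to 2.68, spanned from near equality to a large excess in replicate 2.

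The unequal fall of Mir122 did not rest on scaling, since read ratios within a library carry none. Mir122 had 8.81 reads (7.60 to 10.3) for each Mir192 read in replicate 1 and 2.02 (1.56 to 2.64) in replicate 2. Against Mir204 the ratio was 4.02 (3.62 to 4.48) in replicate 1 and 1.03 (0.830 to 1.28) in replicate 2. Mir122 therefore made up 69.9% (68.1 to 71.7) of the reads of the 6 genes in replicate 1 and 36.6% (32.5 to 41.0) in replicate 2. By contrast, the ratio of Mir204 to Mir192 was 2.19 (1.85 to 2.61) and 1.97 (1.51 to 2.57), with overlapping intervals.

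**Figure D3:**
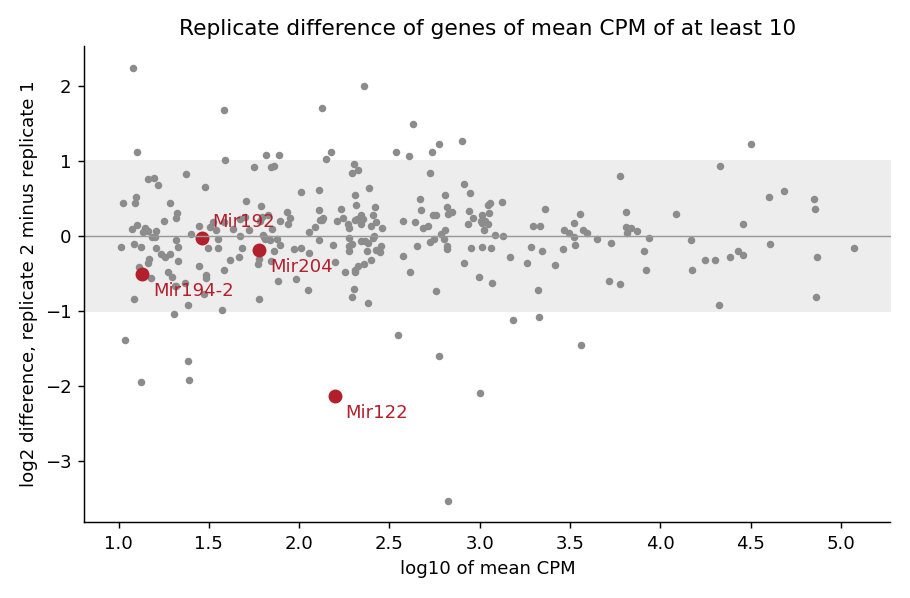
Log2 difference between replicates against log10 of mean CPM for the 280 genes that reached a mean of 10 CPM, with a grey band for differences under 1 in size. Mir122 lies at −2.14, while Mir192, Mir204 and Mir194-2 lie in the band at −0.03, −0.19 and −0.51.

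Few genes differed as much as Mir122. Of the 280 genes, 5, or 1.79%, differed at least 4-fold in either direction on the log2(CPM + 1) scale, and 3, or 1.07%, were at least 4-fold lower in replicate 2. Besides Mir122 the lower genes were Mir31 at −3.53 and Mir107 at −2.10, and the higher ones Mir26a-1 at 2.24 and Mir301 at 2.00. These 4 were named after their values had been seen, and Mir107 and Mir26a-1 share 20 bases with other hairpins. The genes nearest to Mir122 by distance over the log2(CPM + 1) values of both libraries were Mir376b, Mir350 and Mir30b, at distances of 1.03, 1.22 and 1.29. Their log2 differences were −0.72, −0.58 and −0.82, all smaller in size than that of Mir122, and Mir376b shares 20 bases with Mir376c and Mir487b. The kidney genes had closer neighbours. Mir32 lay 0.06 from Mir192, followed by Mir7j at 0.14 and Mir29b-2, which shares 20 bases with Mir29b-1, at 0.19. Mir187 lay 0.09 from Mir204, followed by Mir1247 at 0.14 and Mir664 at 0.17. Mir325 lay 0.09 from Mir194-2, followed by Mir1941 at 0.19 and Mir6236 at 0.20. All 9 of these genes had log2 differences between −0.56 and 0.13, a range that follows from choosing them by this distance. With 2 libraries this likeness is one of level and replicate difference only.

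Markers of other tissues were set beside these values. The erythroid Mir451a also fell, from 5351 CPM in replicate 1 to 1949 CPM in replicate 2 (log2 difference −1.46, called). Mir144, made from the same transcript as Mir451a, stood at 191 and 187 CPM. Mir486, which shares 20 bases with Mir3107 and may be undercounted, stood at 14.2 and 12.6 CPM. The summed CPM of the 3 erythroid genes was 5556 and 2149, with 1 of 3 called, beside 10.7% of the 280 genes. Its part in the difference of Mir122 was not tested. Endothelial Mir126a stood at 92610 and 52519 CPM (log2 difference −0.82, not called), and adipose Mir378a, which shares 20 bases with Mir378c, at 3142 and 3542 CPM.

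Genes of an epithelial list, whose miRNAs are known from many epithelia, summed to a higher level than the kidney genes through 3 of its 10 members. Their summed CPM was 676 in replicate 1 and 1000 in replicate 2, beside 111 and 99.9 for the 5 kidney genes. Of the 10 epithelial genes, 8 were above 2 CPM in both libraries and 4 reached a mean of 10 CPM. Of these 4, 0 were called by Fisher's exact test with the 2-fold limit, beside 10.7% of the 280 genes. Their adjusted p (Fisher's exact test) was 3.6e-41 for Mir182, 3.6e-26 for Mir203, 5.4e-12 for Mir183 and 0.0217 for Mir200c. By the adjusted p alone 69.3% of the 280 genes differed, and the log2 difference of Mir182 was 0.95, close to the limit. Mir203 led at 386 and 542 CPM, followed by Mir182 at 136 and 264 CPM and Mir183 at 102 and 156 CPM. These 3 stood above Mir204 in each library. The other 7 stood below both Mir204 and Mir192, from Mir200c at 23.7 and 15.9 CPM down to Mir205 at 0.147 and 0.324 CPM. Mir183, Mir200c, Mir205 and the Mir196 and Mir30 genes given below were named after their values had been seen.

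Other miRNAs that are abundant in kidney spanned a wide range of levels. All 7 genes of that list were above 2 CPM in both libraries, and 0 of 7 were called, beside 10.7% of the 280 genes. Mir10a, a Hox cluster miRNA, stood at 80981 and 66529 CPM and Mir10b at 27799 and 14638 CPM. Mir30a stood at 6235 and 6745 CPM, Mir196a-2 at 204 and 190 CPM and Mir30c-2 at 203 and 177 CPM, all above Mir204. At the low end Mir196b, at 21.4 and 20.4 CPM, and Mir196a-1, counted at 16.5 and 19.1 CPM, stood below Mir204 and Mir192. Mir196a-1 shares 20 bases with Mir196a-2, and Mir30c-2 with Mir30c-1, so their counts may be lower limits and the place of Mir196a-1 is uncertain. The acinar pancreas list was near the limit that a count of 0 allows. Its 3 genes summed to 0.885 and 0.324 CPM, with Mir217 at 4 reads and 1 read and Mir216a at 2 reads and 0 reads. Striated muscle genes summed to 5.45 and 4.21 CPM over 9 genes, 7 of them at 0 in both libraries, and were led by Mir206 at 3.69 and 3.57 CPM and Mir499 at 1.77 and 0.648 CPM. Of these 9 genes, 5 share 20 bases with another hairpin. Mir122 and the summed kidney genes thus stood above the pancreas and muscle genes in both libraries by reads assigned to a gene. For muscle, uncounted reads could change this order.

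**Figure D4:**
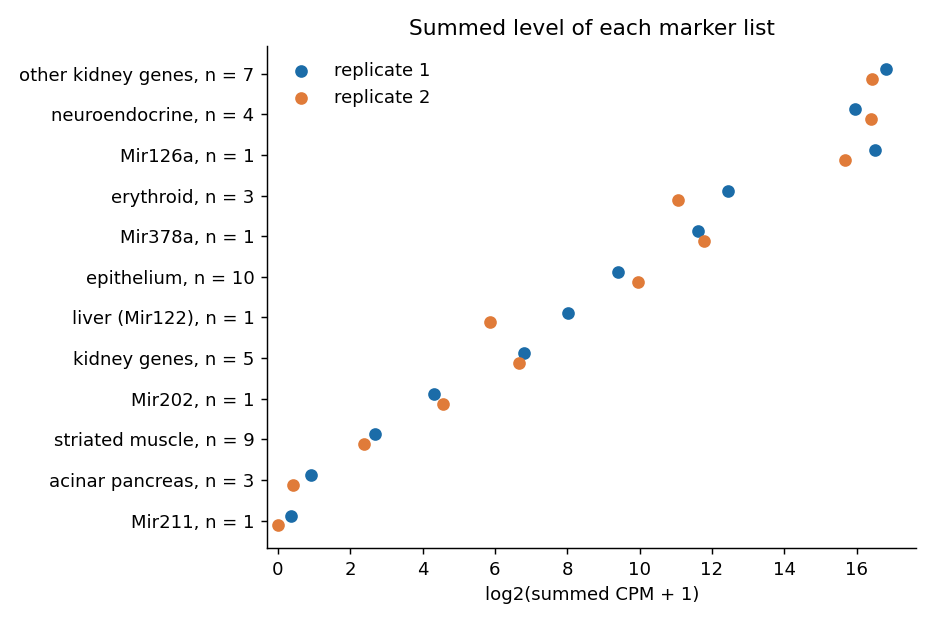
Summed level of each marker list in replicates 1 and 2, as log2(summed CPM + 1), with the number of matched genes. Mir122 and the summed 5 kidney genes lie between the epithelial list above and Mir202, muscle and acinar pancreas below. The list of other kidney genes is the highest of all (115461 and 88318 CPM). Mir122, the erythroid list (through Mir451a), Mir126a, both kidney lists, muscle, acinar pancreas and Mir211 are lower in replicate 2. The epithelial and neuroendocrine lists, Mir202 and Mir378a are higher. For the 5 kidney genes the intervals of the share overlap (0.0103 to 0.0119% and 0.00893 to 0.0112%). Muscle (5.45 and 4.21 CPM), acinar pancreas (0.885 and 0.324 CPM) and Mir211 (2 reads and 0 reads) rest on few reads.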

How the data were processed

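MicroRNA sequencing measured 2 adrenal gland libraries of 1 group. For each library the authors deposited whole read counts per annotated miRNA gene, for both strands, the gene's strand and the opposite strand. The assembly was mm10 and the annotation GENCODE M21, per the deposited text files. How reads were trimmed and aligned is not given in the sources used here. Tables have no header line, and the strand of each column was read from the layout. Counts belong to hairpin genes, not arms. Multimapping reads were assigned to no gene.

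Sense counts were scaled to CPM by totals over miRNA genes, with the mapping lines left out. All 2202 identifiers matched GENCODE M21, which gave names, positions and hairpins. Hairpins were compared for shared runs of 20 bases. Intervals are Wilson, or exact for read ratios (scipy 1.17.1). Fisher's exact test was run on all genes, with Benjamini-Hochberg adjustment over 280 genes that reached a mean of 10 CPM. It was tried on simulated data that held set changes and counting error only, so wider spread between libraries was not covered. Alternative scalings used edgeR 4.0.16 and DESeq2 1.42.0. No molecular identifiers are given, so intervals and limits cover counting error only.

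The genes and lists were chosen with earlier results of these data known. The rule for named genes took all 6 genes, the 3 nearest genes of each of mean CPM of at least 10, miRNA genes within 10 kb, genes sharing 20 bases, and up to 2 genes of each marker list. Mir486b was not matched.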

Additional observations from a re-analysis of the deposited data

How the results depend on the processing

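Of 84 alternative values, 74 were labelled unchanged, by direction and call or by a move of no more than the replicate SD. Counts of pairs and of called genes were judged by their ratio to the reported count. Leaving out a replicate could only keep the label, since with 2 libraries each value lies within that SD of the mean. Mir194-1 was 0 throughout, so its values could not move. Mir122 was called under all 5 alternatives run on its difference (−2.27 to −2.15), and 13 of 15 pairs stayed ordered under each of 3. TMM and DESeq2 scaling change all genes of a library by a common factor, so they could hardly move the gaps within it. The order of pairs with a Mir194 gene stays uncertain because of the uncounted reads. With the column for both strands, Mir192 stood at 32.4 CPM, Mir204 at 67.5 CPM and the kidney share at 0.0118%, because the total is smaller. With all reads as the total, the levels of genes with reads were lower. Mir122 stood at 79.8, Mir192 at 14.3, Mir194-2 at 6.75, Mir204 at 29.8 and Mir215 at 1.42 CPM. The share was then 0.0132% for all 6 genes, 0.00798% for Mir122 and 0.00522% for the kidney genes. The changes of Mir122, Mir215 and the first 2 shares lay within the replicate SD only because that SD is large. The kidney share was 0.00918% without the Mir194 genes. Called genes numbered 50 of 703 with no filter and 19 of 173 at a mean of at least 100 CPM. They split into 17 higher and 13 lower in replicate 2 as reported, 12 and 17 under TMM, and 8 and 17 under DESeq2 size factors, which moved the median of all genes from 0.01 to −0.12. Under TMM and DESeq2 scaling the adjusted p (Fisher's exact test) was lower, 0.0371 and 0.0173 for Mir204 and 0.0315 and 0.0251 for Mir194-2, with log2 differences of −0.29 and −0.32 and of −0.60 and −0.63, so neither was called. It was also 0.0311 for Mir204 with all reads as the total and 0.0455 for Mir194-2 with the column for both strands. Leaving out a replicate gives the other library's value: 57.7 to 257 CPM for Mir122, 28.5 to 29.2 for Mir192, 11.0 to 16.1 for Mir194-2, 56.1 to 64.0 for Mir204 and 1.62 to 4.21 for Mir215, with 0 for Mir194-1. The shares ranged from 0.0158% to 0.0368% for all 6 genes, from 0.00577% to 0.0257% for Mir122 and from 0.00999% to 0.0111% for the kidney genes. No paired analysis was possible because there was 1 group. Depth limits genes of few reads, such as Mir215 with 11 and 13.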
